A study of Arabidopsis thaliana with 15 samples.

Results

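The genes described here are 10 Arabidopsis loci of endoplasmic reticulum (ER) stress and protein folding, of 24618 genes in the count table. They were chosen by name, with earlier results of these data known: the binding-protein genes BIP1 (AT5G28540), BIP2 (AT5G42020) and BIP3 (AT1G09080), the calnexins CNX1 (AT5G61790) and CNX2 (AT5G07340), the calreticulins CRT1 (AT1G56340) and CRT2 (AT1G09210), SDF2 (AT2G25110), and the transcription factors bZIP60 (AT1G42990) and NAC103 (AT5G64060). RNA of wild-type Col-0 seedlings aged 6 days was sequenced in 15 libraries, 3 per group, lettered A, B and C. The groups were Salt (150 mM NaCl), Flg22 (the bacterial flagellin peptide flg22, 250 nM in the labels and 1 µM in the study's methods) and Mock, their untreated control, and Mannitol (300 mM) with an untreated control of its own. All groups were Col-0 and carried no transgene. In the study's imaging methods, salt and flg22 were given in liquid medium and mannitol on plates, each beside an untreated control in the same medium. The RNA methods name no medium. The labels call the material whole seedlings, whereas the methods describe pooled roots harvested 3 hours after treatment; 9 root marker genes were all detected in every library, at 367 to 822 CPM (counts scaled to the size of the library) in sum, and 7 leaf marker genes summed to 37.1 to 267 CPM. The deposited description names an earlier sampling time besides 3 hours and assigns no time to a library. Whether treated and untreated groups were harvested at the same time is therefore not known. Each library pooled the material of many plants and the labels do not say that libraries came from separate cultures, so the p-values measure the spread between such pools only. Library totals were 6094503 to 13943645 counts, and 3 counts, taken as the floor of detection, correspond to 0.215 to 0.492 CPM.

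Proteins that enter the secretory pathway fold in the ER. BiP proteins are HSP70 chaperones that hold unfolded chains there, with SDF2 as a luminal partner, while calnexin at the membrane and calreticulin in the lumen bind chains through their sugar side chains. When unfolded proteins accumulate, the kinase and nuclease IRE1 splices the bZIP60 mRNA and the membrane-bound factors bZIP28 and bZIP17 are cut free; the active factors switch on chaperone genes, and NAC103 acts downstream of bZIP60. BIP3 is widely used as a reporter of this unfolded protein response because it is nearly silent without stress. Gene counts add the spliced and unspliced forms of bZIP60 together, so the splicing itself was not measured here.

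The sequence upstream of the gene is shown for the 4 members in which a stress-related motif was found, since they include the reporter gene BIP3, the factor gene bZIP60 and a calreticulin. In the 300 bases before the annotated gene start, both strands were searched for the ER stress element ERSE-I (CCAAT and CACG with 10 bases of any kind between them), for ERSE-II (ATTGG and CCACG with 1 base of any kind between them), for an unfolded protein response element (UPRE, TGACGTGG or TGACGTGA) and for the abscisic acid response element (ABRE, ACGTGGC or ACGTGTC). ERSE-I was found upstream of BIP3, with 2 matches, and of CRT1, against 0.836% of 23923 genes. The UPRE was found upstream of CRT1 alone among the members, with 2 matches, against 2.07% of genes, and the ABRE upstream of BIP3, bZIP60, CRT1 and SDF2, against 7.57% of genes. ERSE-II was found upstream of 0 members and of 0.0794% of genes. In BIP3 each ERSE-I match overlaps an ABRE match, and in CRT1 a UPRE match overlaps the ABRE match. Another annotated gene reaches into the 300-base window of CRT1 (AT1G56345), of CNX1 (AT5G61800) and of CNX2 (AT5G07330). A match is a match of letters and does not show that a factor binds, nor does the lack of one show the opposite. The last 180 bases before the gene start are printed from the RefSeq genome (TAIR10.1) in the direction of the gene, 5′ to 3′, with matches in capitals. They lie at chr1:2931851-2932030 (minus strand) for BIP3, chr1:16137464-16137643 (minus strand) for bZIP60, chr1:21092710-21092889 (minus strand) for CRT1 and chr2:10683938-10684117 (plus strand) for SDF2.
BIP3: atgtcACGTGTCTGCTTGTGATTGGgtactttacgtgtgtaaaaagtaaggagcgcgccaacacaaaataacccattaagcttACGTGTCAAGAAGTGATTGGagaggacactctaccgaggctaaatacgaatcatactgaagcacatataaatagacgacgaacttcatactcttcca
bZIP60: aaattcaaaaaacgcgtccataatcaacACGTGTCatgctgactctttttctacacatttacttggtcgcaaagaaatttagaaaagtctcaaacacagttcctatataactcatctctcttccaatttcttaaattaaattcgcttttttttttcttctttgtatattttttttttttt
CRT1: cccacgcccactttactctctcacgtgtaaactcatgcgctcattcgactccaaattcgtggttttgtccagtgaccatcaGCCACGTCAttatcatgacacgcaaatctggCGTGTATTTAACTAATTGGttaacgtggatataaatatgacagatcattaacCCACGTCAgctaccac
SDF2: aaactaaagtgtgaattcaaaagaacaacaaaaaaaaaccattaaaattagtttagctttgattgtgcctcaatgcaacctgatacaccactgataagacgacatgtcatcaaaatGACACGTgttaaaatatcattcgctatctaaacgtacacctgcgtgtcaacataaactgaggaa

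The levels of the 10 genes spanned a wide range. Per kilobase of exon, BIP2 had the highest mean level in Salt (184 ± 46.9 CPM per kb, SD, n = 3), Flg22 (194 ± 17.5), Mock (220.3 ± 23.2) and the mannitol control (249 ± 4.37), and BIP1 in Mannitol (153 ± 8.0). BIP1, BIP2, CNX1, CRT1 and CRT2 filled the first 5 places in every group, and their neighbours in that order overlapped between libraries in Salt, Mock and Mannitol throughout. In Flg22 CRT1 lay above CNX1 with no overlap, and in the mannitol control CNX1, BIP1, CRT1 and CRT2 followed each other with no overlap, behind BIP2, which overlapped CNX1. bZIP60 and SDF2 followed in places 6 and 7, with bZIP60 above SDF2 and no overlap in Salt, Flg22 and Mannitol, below SDF2 with no overlap in the mannitol control, and overlapping it in Mock. CNX2 stood below them in every group, at 12.5 to 27.1 CPM per kb as group means, against 116 to 248 CPM per kb for its paralogue CNX1. BIP1 and BIP2 are close copies: 8.7% of the 100-base windows of BIP1 and 9.45% of those of BIP2 occur in both, and reads from there cannot be told apart. No exon of the 10 genes overlaps another annotated gene.

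BIP3, the stress-induced binding protein, and NAC103 were at or near the floor of detection throughout. BIP3 had 10, 6 and 4 counts in Salt, 8, 13 and 12 in Flg22, and 1, 17 and 11 in Mock. It had 5, 6 and 0 counts in Mannitol and 5, 9 and 3 in the mannitol control. No group stood clear of its control, and at this depth a small difference was not detectable. NAC103 had 4, 4 and 1 counts in Salt, 4, 2 and 0 in Flg22, and 0, 4 and 6 in Mock, and 8, 5 and 17 counts in Mannitol against 15, 16 and 6 in the mannitol control. The largest count of either gene in any library was 17. At 0.573 ± 0.60 CPM per kb in Mock, BIP3 lay far below BIP2, so the binding-protein transcripts counted in these libraries came almost wholly from BIP1 and BIP2.

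**Figure D1:**
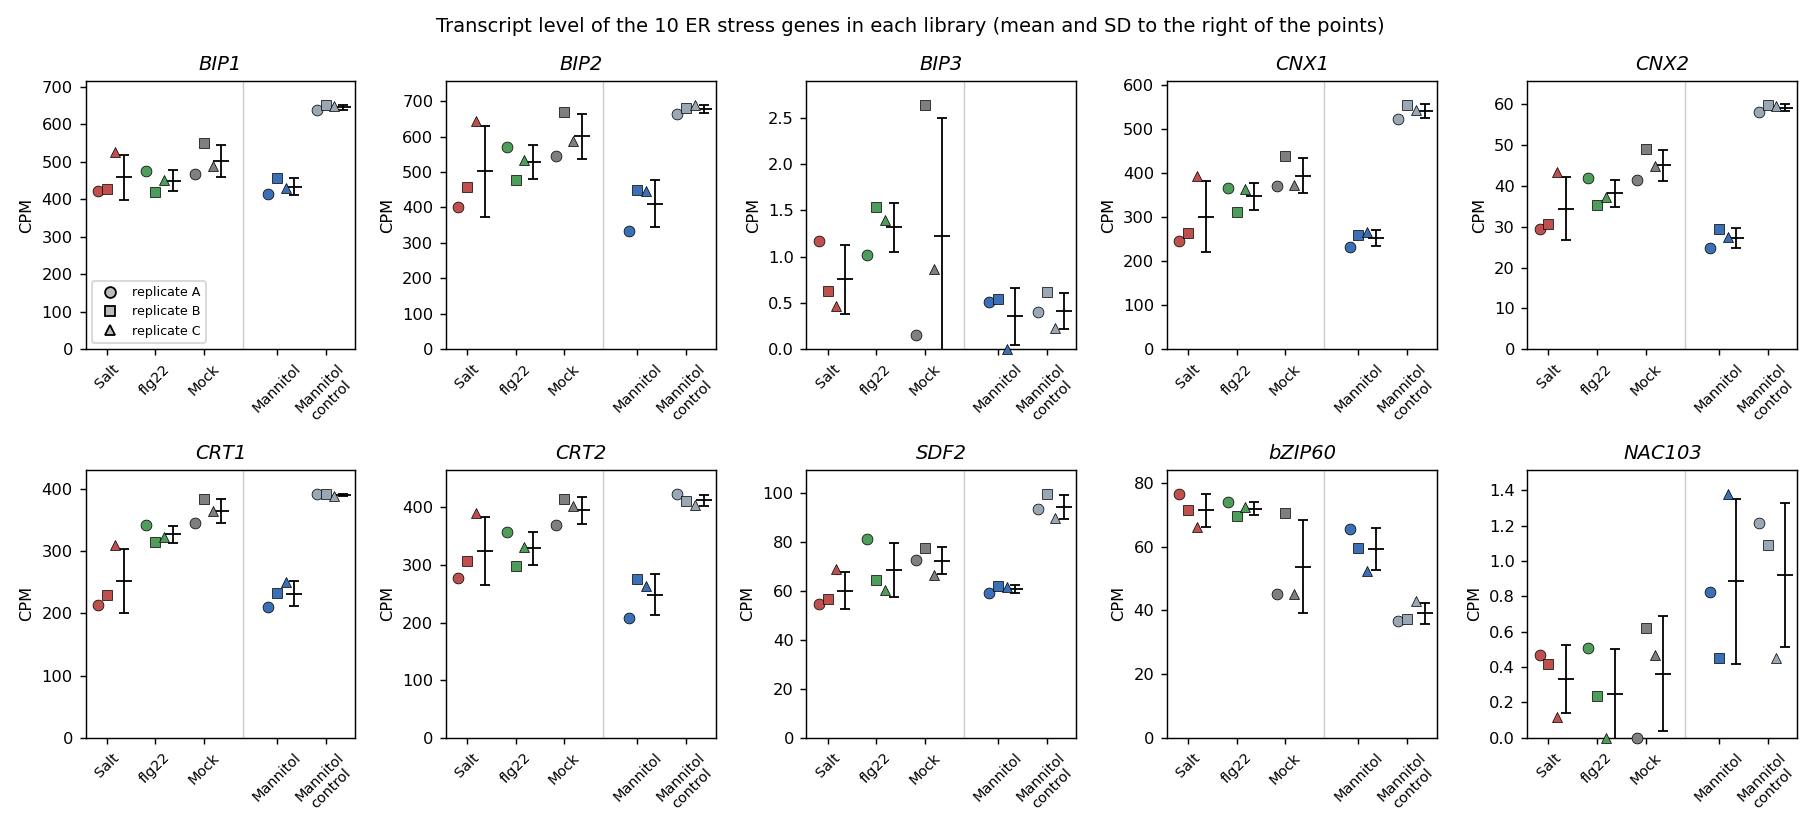
CPM (normalised over all 15 libraries) of each of the 10 genes by group; points are the 3 libraries, with a symbol per letter, and the bar beside them is the mean ± SD, cut at 0; the vertical scale differs between genes. The 3 Mannitol libraries lie below the 3 mannitol control libraries for the 7 chaperone genes other than BIP3 and above them for bZIP60, while BIP3 and NAC103 stay under 3 CPM.

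Under mannitol the chaperone genes were lower and bZIP60 was higher. Of the 9 members that passed the filter on low counts, 7 were lower in Mannitol than in its control (BIP1, BIP2, CNX1, CNX2, CRT1, CRT2 and SDF2) and 1, bZIP60, was higher, at an adjusted p under 0.05 (quasi-likelihood test in edgeR, p-values adjusted by Benjamini and Hochberg's method over all genes). Across all 18939 genes tested, 26.0% were called lower, 26.0% higher and 52.1% in either direction. The median log2 fold change of the members was −0.73, against −0.02 over all genes. NAC103 was tested and did not pass (adjusted p = 0.964), and BIP3 did not pass the filter.

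The calnexin genes had the largest changes. CNX1 had 233, 260 and 267 CPM in Mannitol, against 523, 554 and 544 CPM in the control. CNX2 had 24.7, 29.5 and 27.6 CPM in Mannitol, against 58.2, 59.8 and 59.7 CPM in the control. For both, the highest Mannitol library lay far below the lowest control library. The log2 fold change was −1.09 for CNX1 (SE 0.08, edgeR adjusted p = 7.02e-08) and −1.12 for CNX2 (SE 0.09, edgeR adjusted p = 1.65e-07), and these were the only members whose log2 value was past 1 in size, as were 7.46% of all genes in that direction. The calreticulins, their soluble counterparts, fell less. CRT1 had 211, 232 and 251 CPM in Mannitol, against 392, 392 and 388 CPM in the control (log2 fold change −0.76, SE 0.08, edgeR adjusted p = 3.1e-06). CRT2 had 207, 275 and 263 CPM in Mannitol, against 423, 410 and 404 CPM in the control (log2 fold change −0.73, SE 0.10, edgeR adjusted p = 3.04e-05). Neither calreticulin overlapped between the groups.

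The binding proteins and SDF2 moved the same way. BIP2 had 334, 450 and 447 CPM in Mannitol, against 665, 682 and 688 CPM in the control (log2 fold change −0.73, SE 0.11, edgeR adjusted p = 6.53e-05). BIP1 had 413, 458 and 430 CPM in Mannitol, against 637, 650.4 and 648 CPM in the control (log2 fold change −0.58, SE 0.07, edgeR adjusted p = 1.85e-05). SDF2 had 59.0, 62.0 and 61.7 CPM in Mannitol, against 93.3, 99.5 and 89.6 CPM in the control (log2 fold change −0.63, SE 0.07, edgeR adjusted p = 7.89e-06). None of the 3 overlapped, so that all 7 chaperone genes lay below the control in every library, as did 30.5% of all genes. Summed over the 7 chaperone genes (BIP3 left out), the level was 1665 ± 159 CPM in Mannitol and 2820 ± 28.3 CPM in the control (SD, n = 3 each). bZIP60 went the other way, with 65.7, 59.6 and 52.5 CPM in Mannitol, against 36.7, 37.5 and 42.9 CPM in the control, a log2 fold change of 0.60 (SE 0.10, edgeR adjusted p = 0.000158) with no overlap, as in 30.2% of all genes in that direction. In bulk RNA of this kind fewer cells of a type and less RNA per cell cannot be told apart. The root markers summed to 367 to 396 CPM in Mannitol and 467 to 533 CPM in the control, with 0 of 9 at zero, and the leaf markers to 91.1 to 117 CPM and 90.2 to 115 CPM; the part of the root marker difference in these results was not tested.

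**Figure D2:**
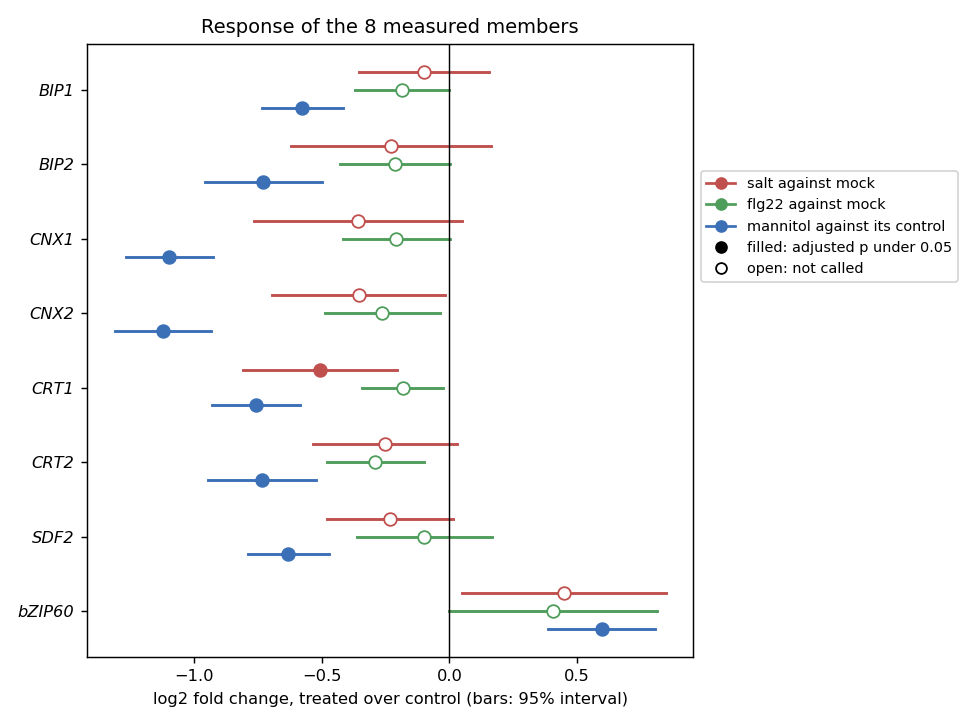
log2 fold change (treated over control, horizontal axis) of the 8 members tested in all 3 comparisons, with 95% intervals from edgeR; filled points have an adjusted p under 0.05 and open points do not. The mannitol points are filled for all 8, from −1.12 for CNX2 to 0.60 for bZIP60, CRT1 is the only filled salt point at −0.51, and no flg22 point is filled.

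Under salt, a single member passed the test. CRT1 had 214, 230 and 310 CPM in Salt, against 345, 384 and 365 CPM in Mock, so every Salt library was below every Mock library, a pattern seen in 28.7% of all genes. The log2 fold change was −0.51 (SE 0.13, edgeR adjusted p = 0.0138). This was 1 of 8 members tested, whereas 19.4% of all 18484 genes tested were called lower, 22.5% higher and 41.9% in either direction. The call was lost without Salt replicate B (edgeR adjusted p = 0.0667).

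The other 6 chaperone genes were also lower on average in Salt, with log2 fold changes between −0.36 and −0.10, but none passed and all overlapped Mock. CNX1 had 245, 264 and 394 CPM in Salt, against 370, 440 and 373 CPM in Mock, a log2 fold change of −0.36 (95% interval −0.76 to 0.05). BIP2 had 401, 459 and 645 CPM in Salt, against 544, 669 and 588 CPM in Mock, a log2 fold change of −0.23 (95% interval −0.62 to 0.16). In both, Salt replicates A and B lay below all Mock libraries and Salt replicate C lay among them. Salt replicate C was the highest of its group for 7 of the 8 members, all but bZIP60, and Mock replicate B was the highest of its group for 8 of 8. Without Salt replicate C, 6 members were called lower, with log2 fold changes of −0.44 for BIP2, −0.59 for CNX1, −0.55 for CNX2, −0.68 for CRT1, −0.40 for CRT2 and −0.33 for SDF2. The count of members lower in Salt therefore ranged between 0 and 6 with the library left out. Summed over the 7 chaperone genes, the level was 1931 ± 393 CPM in Salt and 2373 ± 192 CPM in Mock (SD, n = 3 each). The leaf markers summed to 37.1 to 105 CPM in Salt and 111 to 170 CPM in Mock, with at most 1 of 7 at zero, and the root markers to 583 to 607 CPM and 649 to 657 CPM; neither pair of ranges overlapped, and their part in the salt values was not tested.

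bZIP60 had 76.5, 71.5 and 66.1 CPM in Salt, against 45.3, 70.6 and 45.2 CPM in Mock. Mock replicate B reached the Salt range while the other Mock libraries lay below it. The log2 fold change was 0.45 (SE 0.17, 95% interval 0.05 to 0.85) and did not pass (edgeR adjusted p = 0.0688). Without Mock replicate B it was 0.69 and passed (edgeR adjusted p = 0.000853), and with Mock replicate B kept it passed with all 15 libraries in 1 fit (0.42, edgeR adjusted p = 0.0212) and with a replicate block (0.47, edgeR adjusted p = 0.0356), so the call depended on the fit and on that control library.

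**Figure D3:**
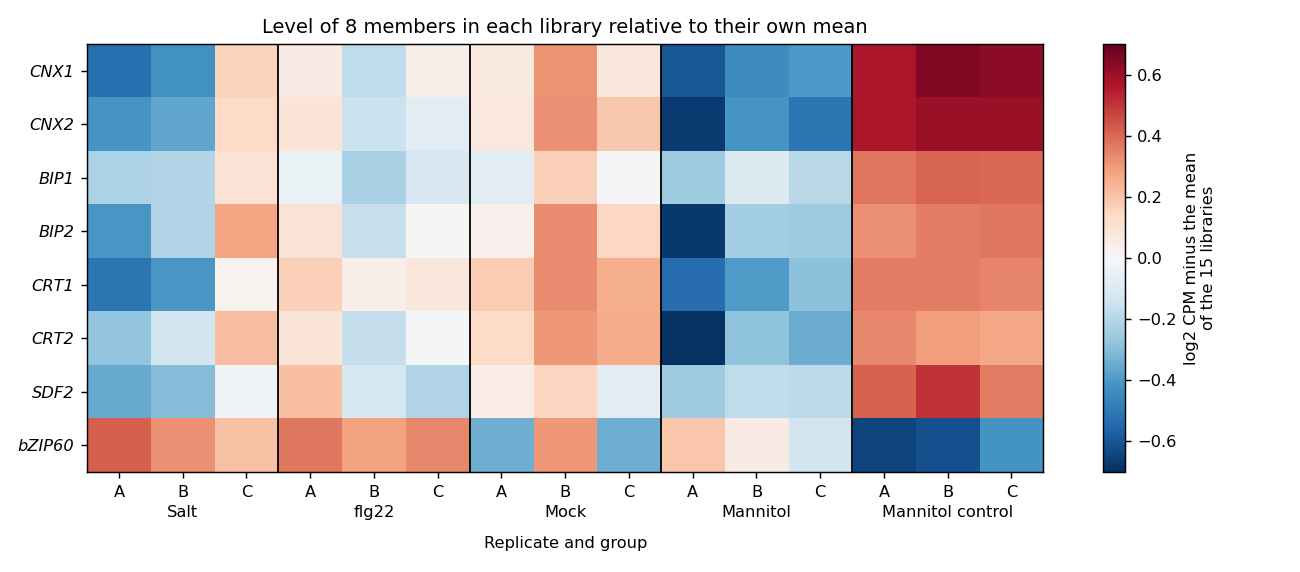
Level of the 8 members with ample counts in each of the 15 libraries (columns, by group and letter), as log2 CPM minus the gene's mean over the 15 libraries; red is higher and blue lower. The 7 chaperone genes form a block that is mostly lowest in Mannitol and in Salt replicates A and B and highest in the mannitol control, Salt replicate C stands apart from the other Salt libraries, and bZIP60 runs the other way, with Mock replicate B as high as the Salt and Flg22 libraries.

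No member passed the test under flg22, a peptide that immune receptors of the plasma membrane detect as a sign of bacteria. Of the 9 members tested, 0 passed at an adjusted p under 0.05 in edgeR, and 0 passed in DESeq2, where edgeR called 2.54% of all 18230 genes tested higher, 1.14% lower and 3.68% in either direction; 3 members (CNX2, CRT1 and CRT2) had an unadjusted p under 0.05. CRT2 had 356, 298 and 332 CPM in Flg22, against 369, 414 and 401 CPM in Mock (log2 fold change −0.29, 95% interval −0.48 to −0.10, edgeR adjusted p = 0.101). CRT1 had 343, 315 and 323 CPM in Flg22, against 345, 384 and 365 CPM in Mock (log2 fold change −0.18, 95% interval −0.34 to −0.02, edgeR adjusted p = 0.215). CNX1, CRT1 and CRT2 were below Mock in every library, a pattern seen in 10.2% of all genes tested. The 7 chaperone genes had log2 fold changes between −0.29 and −0.10, and the lowest bound of their 95% intervals was −0.48, for CNX2 and CRT2. bZIP60 had 73.9, 69.6 and 72.5 CPM in Flg22, against the Mock values given above, a log2 fold change of 0.41 (95% interval −0.00073 to 0.81, edgeR adjusted p = 0.286). Without Mock replicate B it was 0.64 and passed (edgeR adjusted p = 0.00261). The summed level of the 7 chaperone genes was 2087 ± 158 CPM in Flg22 and 2373 ± 192 CPM in Mock (SD, n = 3 each).

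Whether the responses to salt and to mannitol differ was tested as an interaction over 12 libraries. The labels do not say whether the salt and mannitol libraries differ in medium or experiment. Any such difference cannot be told apart from treatment in that contrast. The salt response was less negative than the mannitol response for CNX2 by 0.77 on the log2 scale (SE 0.18, edgeR adjusted p = 0.00801), for CNX1 by 0.74 (SE 0.21, edgeR adjusted p = 0.0258) and for BIP1 by 0.48 (SE 0.14, edgeR adjusted p = 0.0245). These were 3 of 9 members tested, against 11.5% of all genes higher and 19.5% in either direction. All 3 also had a higher untreated level in the mannitol control than in Mock (log2 fold change 0.40 for CNX2, 0.46 for CNX1 and 0.36 for BIP1). Their salt and mannitol responses thus start from different untreated levels. The treated means were 34.5 CPM in Salt and 27.2 CPM in Mannitol for CNX2, 301 and 253 CPM for CNX1, and 458 and 434 CPM for BIP1. CNX2 kept its call in all 18 alternatives. CNX1 did not pass without Mock replicate A or C, Mannitol replicate A, or mannitol control replicate B or C, with adjusted p of 0.0541 to 0.0685 in edgeR. BIP1 did not pass without Mock replicate A or C, Mannitol replicate C, or mannitol control replicate B or C, with adjusted p of 0.0534 to 0.0649 in edgeR, nor under upper-quartile scaling (0.43, edgeR adjusted p = 0.0509). SDF2 (0.40, edgeR adjusted p = 0.0505) passed without Salt replicate A (adjusted p = 0.038) or without Mock replicate B (adjusted p = 0.029), and CRT2 (0.48, edgeR adjusted p = 0.0717) passed without Salt replicate A (adjusted p = 0.0308). For CRT1 the difference was 0.25 (95% interval −0.11 to 0.61) and for bZIP60 −0.15 (95% interval −0.61 to 0.31), so neither was shown to respond differently.

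Salt and flg22 share the Mock libraries and were therefore compared directly. CRT1, at 214 to 310 CPM in Salt and 315 to 343 CPM in Flg22, was the 1 member of 8 called (log2 fold change −0.36, SE 0.13, edgeR adjusted p = 0.0477), where 20.8% of all genes were called lower, 21.7% higher and 42.5% in either direction, and 28.3% lay below Flg22 with no overlap. The call was lost when Salt replicate A or B or any Flg22 library was left out (edgeR adjusted p 0.0886 to 0.172), and without Salt replicate C 4 members were called lower: BIP2 (−0.26), CNX1 (−0.42), CNX2 (−0.31) and CRT1 (−0.53). For bZIP60 the levels were 66.1 to 76.5 CPM in Salt and 69.6 to 73.9 CPM in Flg22, a log2 fold change of 0.013 with a 95% interval of −0.18 to 0.21. The ratio of CRT1 to CRT2 per kilobase, which does not depend on depth, was 0.92 ± 0.03 in Salt, 1.19 ± 0.06 in Flg22 and 1.1 ± 0.02 in Mock (SD, n = 3 each), and its values in Salt (0.894 to 0.947) did not overlap those in Flg22 (1.14 to 1.26) or in Mock (1.08 to 1.11). It was 1.12 ± 0.10 in Mannitol and 1.13 ± 0.02 in the mannitol control. The ratio of CNX1 to CNX2 was between 8.32 and 9.73 in all 15 libraries. The ratio of BIP1 to BIP2 was 0.924 to 1.19 in Mannitol and 0.906 to 0.920 in its control. These ranges did not overlap but nearly touched, and reads from the shared sequence of the genes cannot be told apart. How often the ratios of other gene pairs separate in this way was not computed. In Salt (0.784 to 1.01) it overlapped Mock (0.791 to 0.826).

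The untreated levels of the members also differed between the experiments. In the mannitol control against Mock, CNX1 (log2 fold change 0.46), CNX2 (0.40), SDF2 (0.39) and BIP1 (0.36) were higher at an adjusted p of 0.00191 or less in edgeR, 4 of 8 members tested, against 20.9% of all genes called higher, 21.6% lower and 42.5% in either direction. BIP2 (0.18, adjusted p = 0.0805) was called only without Mock replicate B (0.26), and bZIP60 was lower by a log2 fold change of −0.45 that did not pass (edgeR adjusted p = 0.0984) and passed without Mock replicate C (−0.57, adjusted p = 0.0458), in DESeq2 (−0.46) and with all 15 libraries in 1 fit (−0.45). This is no treatment effect, and medium and experiment cannot be told apart in it. The Mannitol levels of the chaperone genes lay below Mock as well, for example 233 to 267 CPM for CNX1 in Mannitol and 370 to 440 CPM in Mock. The share of all genes with this pattern was not computed. For bZIP60 the Mannitol levels (52.5 to 65.7 CPM) lay within the Mock range (45.2 to 70.6 CPM), so its rise was seen against the mannitol control only.

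Across the 15 libraries the 7 chaperone genes varied together. Pearson's r of log2 CPM ran from 0.754 to 0.987 over their 21 pairs, with a median of 0.916, and from −0.697 to −0.490 between bZIP60 and the 7; these are descriptions over libraries that share groups and normalisation. The genes most like CNX2, the member with the largest change, were CNX1 (r = 0.987), SAR1B (AT1G56330, 0.982), which encodes a small GTPase of vesicle budding from the ER, the actin gene ACT7 (AT5G09810, 0.982), the biotin synthase gene BIO2 (AT2G43360, 0.977) and TSO2 (AT3G27060, 0.976), a ribonucleotide reductase subunit, of 19403 genes. BIP2 came at place 18, CRT2 at 31, CRT1 at 36, BIP1 at 59 and SDF2 at 115.

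A wider list of 48 ER genes, sorted by role and also chosen with earlier results of these data known, was read beside the members. In Salt against Mock 12 of 46 tested were called higher and 7 lower, in Flg22 against Mock 0 of 46 in edgeR and 0 in DESeq2, with 7 at an unadjusted p under 0.05, and in Mannitol against its control 11 of 47 higher and 18 lower. Over all genes 22.5% were called higher and 19.4% lower in Salt, 3.68% in either direction in Flg22, and 26.0% each way in Mannitol, so the salt counts and the count of higher genes in Mannitol are near the background. Leaving out Salt replicate B brought the salt count to 8 higher and 4 lower. The medians over the list were 0.07, −0.03 and −0.05 on the log2 scale, against −0.01, −0.01 and −0.02 over all genes.

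Of the 10 sensors and regulators tested, 6 were called higher and 1 lower in Salt, and 5 higher and 2 lower in Mannitol; over all genes the shares were 22.5% higher and 19.4% lower in Salt and 26.0% each way in Mannitol. NAC089, a membrane-bound NAC factor, had 14.97 ± 2.69 CPM in Salt and 7.67 ± 1.16 CPM in Mock (log2 fold change 1.02, edgeR adjusted p = 0.00202), and 23.8 ± 3.92 CPM in Mannitol and 7.27 ± 0.17 CPM in the control (1.70, edgeR adjusted p = 2.94e-07). NAC062, another membrane-bound factor, rose by 0.82 in Salt (edgeR adjusted p = 0.00576) and 0.86 in Mannitol (edgeR adjusted p = 6.88e-06). BI-1, the Bax inhibitor of the ER membrane, rose by 0.77 in Salt (edgeR adjusted p = 0.00288) and 0.60 in Mannitol (edgeR adjusted p = 0.000157). The sensors and the proteases that free bZIP28 and bZIP17 were named for their role after their values were seen. IRE1A, which encodes an IRE1 enzyme, had 90.1 ± 16.4 CPM in Salt and 69.3 ± 4.13 CPM in Mock (log2 fold change 0.41, edgeR adjusted p = 0.0339). It had 71.9 ± 7.61 CPM in Mannitol and 49.3 ± 0.96 CPM in the control (0.54, edgeR adjusted p = 0.000106). Its Mannitol mean was thus near that of Mock, and its mannitol control lay below Mock (log2 fold change −0.49, edgeR adjusted p = 0.000251). bZIP28 rose by 0.71 in Salt (edgeR adjusted p = 0.00136) and by 0.33 in Mannitol (edgeR adjusted p = 0.00312), and bZIP17 rose by 0.50 in Salt (edgeR adjusted p = 0.00271) but did not pass in Mannitol, at 0.07 on the log2 scale (edgeR adjusted p = 0.532). IRE1B had 0.19 on the log2 scale in both and did not pass (edgeR adjusted p = 0.151 in Salt and 0.0746 in Mannitol), and the protease gene S1P had 0.09 in Salt and 0.018 in Mannitol, neither passing. The protease gene S2P fell by 0.60 in Mannitol (edgeR adjusted p = 0.0307) and had −0.48 in Salt without passing (edgeR adjusted p = 0.0695). BAG7 was the 1 gene of this role called lower in Salt (−0.36, edgeR adjusted p = 0.0114). It was lower in Mannitol too (−0.27, edgeR adjusted p = 0.00917).

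Of 12 genes of disulfide formation, 8 were called lower and 1 higher in Mannitol, where 26.0% of all genes were called each way, and 3 lower and 1 higher in Salt, where 19.4% were lower and 22.5% higher. PDIL2-2, a protein disulfide isomerase, had 25.9 ± 5.83 CPM in Mannitol and 54.5 ± 1.2 CPM in the control (log2 fold change −1.06, edgeR adjusted p = 2.01e-05), and fell by 0.63 in Salt (edgeR adjusted p = 0.00438). PDIL1-3 fell by 0.53 in Salt (edgeR adjusted p = 0.00401) and by 0.39 in Mannitol (edgeR adjusted p = 0.006). ERO1, an oxidase that recharges these isomerases, rose by 0.73 in Salt (edgeR adjusted p = 0.00975) and by 0.64 in Mannitol (edgeR adjusted p = 0.0067). Of 9 chaperones and co-chaperones 4 were lower, 0 higher and 5 not called in Mannitol, and 2 were lower and 1 higher in Salt. ERdj3B, a DnaJ partner of BiP, was lower in Mannitol (−0.68, edgeR adjusted p = 8e-06) and in Salt (−0.46, edgeR adjusted p = 0.0311). SHD, the ER HSP90, had 406 ± 74.3 CPM in Salt and 578 ± 34.2 CPM in Mock (−0.48, edgeR adjusted p = 0.0137). It was lower in Mannitol too (−0.67, edgeR adjusted p = 2.67e-05).

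Genes of ER-associated degradation, which returns misfolded proteins to the cytosol, were called higher for 4 of 9 in Mannitol and 3 of 9 in Salt. Lower calls numbered 0 in both. Over all genes 26.0% were called each way in Mannitol, and 22.5% higher and 19.4% lower in Salt. UBC32, a ubiquitin-conjugating enzyme of the degradation pathway, had 91.9 ± 14.9 CPM in Mannitol and 43.1 ± 0.87 CPM in the control (log2 fold change 1.09, edgeR adjusted p = 7.95e-07). In Salt UBC32 rose by 0.52 (edgeR adjusted p = 0.00132). Of the translocon genes, which form the channel into the ER, 4 of 7 were lower and 1 higher in Mannitol. In Salt 1 of 6 was called each way, and the shares over all genes are those given above for each treatment. SEC61G fell by 0.73 in Mannitol (edgeR adjusted p = 2.02e-06) and by 0.52 in Salt (edgeR adjusted p = 0.00843). SEC61B-2 fell by 0.94 in Mannitol (edgeR adjusted p = 0.00977). SEC61A-3 was the gene that rose, with 51, 53 and 60 counts in Mannitol and 6, 2 and 5 counts in the control. It passed the count filter through its Mannitol libraries only, so it could be called in that direction alone. Its log2 fold change of 3.89 is therefore a description, and its size rests on few control counts. 11 genes of the wider list overlap another annotated gene, and the libraries do not record strand.

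**Figure D4:**
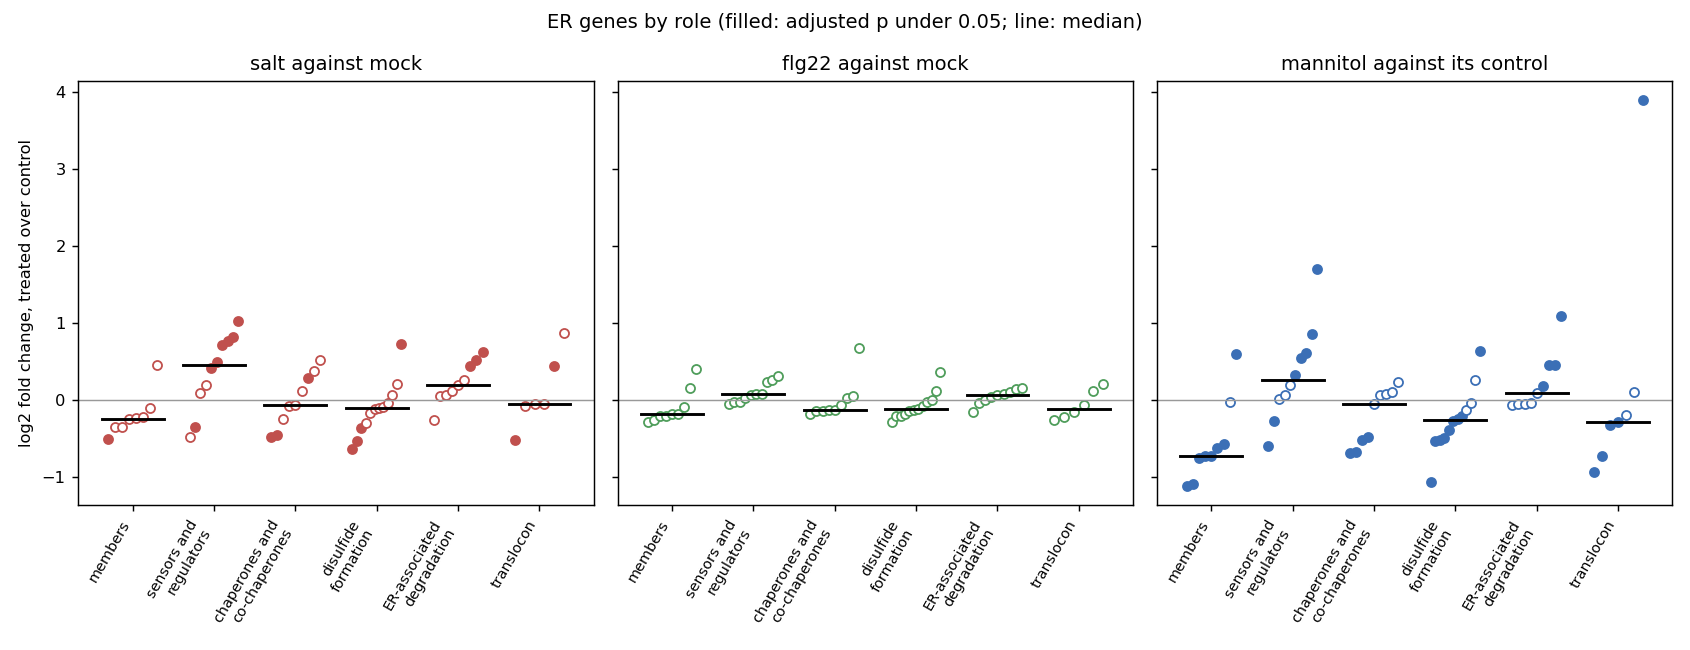
log2 fold change (treated over control, vertical axis) of the members and of the wider ER list by role in the 3 comparisons; each point is a gene, filled at an adjusted p under 0.05 in edgeR, and the line is the group's median. Under mannitol the members have a median of −0.73 and the sensors and regulators one of 0.26, under salt the medians are −0.24 and 0.45, and under flg22 every point is open.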

How the data were processed

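Per the labels and the study's methods, polyadenylated RNA was sequenced in paired, nonstranded libraries; the authors used Trimmomatic for trimming, Araport11 as the mapping reference, Picard to remove duplicate reads and HTSeq to count reads over genes (versions not given in the sources used here). The authors deposited raw counts, 1 column per library; the columns named Mock2 were taken as the mannitol controls, the only untreated group of the labels other than Mock. Discarding duplicates can lower the counts of strongly expressed genes. From these counts, edgeR 4.0.16 (TMM, filterByExpr with a minimum count of 10, robust quasi-likelihood test, group as the only term) was fitted for each comparison on the libraries compared, and p-values were adjusted by the Benjamini-Hochberg method over all genes tested; a gene was called at an adjusted p under 0.05. Fold changes are on the log2 scale with 95% intervals. CPM values used TMM factors over all 15 libraries. Counting error only is covered by the floor of 3 counts. The code was tested on simulated data. DESeq2 1.42.0, upper-quartile and DESeq2 scaling, no filter, a fold limit, the replicate letter as a block, 1 fit of all libraries and leaving out each library were the alternatives. All members are named; of the other lists, the 4 largest called changes in each direction per comparison, and the 5 genes most correlated with the member of largest change. The members and lists were chosen with earlier results of these data known. All 24618 gene IDs matched RefSeq (TAIR10.1), which gave names, lengths and sequences.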

Additional observations from a re-analysis of the deposited data

Results flagged for a closer look

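For 3 members the responses to salt and mannitol differed by the interaction test: CNX2 by 0.77 on the log2 scale (SE 0.18, edgeR adjusted p = 0.00801), CNX1 by 0.74 (SE 0.21, edgeR adjusted p = 0.0258) and BIP1 by 0.48 (SE 0.14, edgeR adjusted p = 0.0245), each less negative in salt. Over all genes 19.5% were called in either direction in that test. The call was lost in 5 of 18 alternatives for CNX1 and in 6 for BIP1, and it was kept in all for CNX2. The untreated levels of all 3 were higher in the mannitol control than in Mock. CRT1 differed between Salt and Flg22, with a log2 fold change of −0.36 (SE 0.13, edgeR adjusted p = 0.0477). That call was lost in 5 of 12 alternatives, and 42.5% of all genes were called in that comparison. Any difference in medium or experiment cannot be told apart from treatment in the salt and mannitol contrast.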

How the results depend on the processing

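In Mannitol against its control, the 8 called members kept their direction and call in all 12 alternatives that changed the scaling, filter, tool or libraries. The study's methods give a fold change limit of 1 and −1 and name neither a log2 scale nor an adjusted p. It was read here as 1 or more in size on the log2 scale and added to the adjusted p. This left 2 members and 4 genes of the wider list in Mannitol, and 0 and 1 in Salt. It left 0 and 2 in the interaction, 0 and 1 in Salt against Flg22, and 0 and 1 between the untreated controls. In Salt against Mock, 4 members were called under upper-quartile scaling, which moved the median of all genes by −0.15, and 4 with all 15 libraries in 1 fit; CNX2 at −0.50, CRT2 at −0.40 and SDF2 at −0.38 passed under upper-quartile scaling, and these values include that shift. With libraries left out, the member counts ran from 0 to 6 in Salt, from 0 to 1 in Flg22, from 1 to 5 in the interaction and from 0 to 4 in Salt against Flg22. The wider list counts ran from 12 to 25 in Salt, from 3 to 8 in the interaction (7 with all of its libraries) and from 9 to 23 in Salt against Flg22. The replicate letters did not pair the libraries, since same-letter correlations of deviations were 0.087 at most; a replicate block gave 2 members in Salt (bZIP60 higher at 0.47, CRT1 lower), and CRT2 passed with it in the interaction (edgeR adjusted p = 0.0372).

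Values near 0 changed sign. With libraries left out, NAC103 ran from −0.55 to 0.28 in Mannitol and from −0.56 to 0.34 in the interaction, BIP3 from −0.29 to 1.09 in Flg22, and bZIP60 from −0.27 to 0.095 in the interaction. In Salt against Flg22, libraries left out gave −0.050 to 0.11 for BIP1, −0.26 to 0.085 for BIP2, −0.043 to 0.073 for bZIP60 and −0.14 to 0.10 for CRT2. There, upper-quartile scaling gave −0.016 for BIP1, −0.060 for bZIP60 and −0.063 for CRT2, the fit of all libraries −0.012 for bZIP60 and −0.020 for CRT2, and the replicate block −0.0063 for CRT2. The cause of these changes was not tested. Depth limits BIP3 and NAC103, whose counts stayed at or under 17.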

Other observations

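HSP70 genes outside the ER are relatives of the BIP genes. Of 9 genes, 5 were called higher and 0 lower in Salt against Mock, 0 higher and 1 lower in Flg22 against Mock, and 2 higher and 5 lower in Mannitol against its control. Over all genes 22.5% were called higher and 19.4% lower in Salt, 2.54% higher and 1.14% lower in Flg22, and 26.0% each way in Mannitol. The cytosolic HSP70-4 had 453 ± 95.2 CPM in Salt and 31.6 ± 2.75 CPM in Mock (log2 fold change 3.88, edgeR adjusted p = 6.14e-07), and 806 ± 115 CPM in Mannitol and 429 ± 54.2 CPM in the control (0.90, edgeR adjusted p = 1.27e-05). HSP70-5 rose by 0.95 in Salt (edgeR adjusted p = 0.00799) and by 1.74 in Mannitol (edgeR adjusted p = 9.42e-08). HSC70-3 rose by 1.31 in Salt (edgeR adjusted p = 5.13e-05) and fell by 0.54 in Mannitol (edgeR adjusted p = 7.82e-05), but it overlaps a gene on the other strand and the libraries do not record strand. The plastid cpHSC70-2 rose by 0.46 in Salt (edgeR adjusted p = 0.00384) and fell by 0.78 in Mannitol (edgeR adjusted p = 8.19e-07). HSC70-2 fell by 1.04 in Mannitol (edgeR adjusted p = 4.11e-07) and was not called in Salt. mtHSC70-2, part of whose sequence another gene shares, fell by 0.37 in Mannitol (edgeR adjusted p = 0.00135) and rose by 0.29 in Salt (edgeR adjusted p = 0.03). mtHSC70-1 fell by 0.33 in Flg22 (edgeR adjusted p = 0.0396) and by 0.33 in Mannitol (edgeR adjusted p = 0.00319). The levels also differed between the 2 untreated groups. In the mannitol control 6 of the 9 genes were called higher than in Mock, where 20.9% of all genes were. HSP70-4 was higher by 3.78 on the log2 scale (edgeR adjusted p = 1.04e-08). HSC70-3 by 1.24, cpHSC70-2 by 0.95, mtHSC70-2 by 0.78 and HSP70-5 by 0.64 were also among them. The salt and mannitol changes of HSC70-3 and cpHSC70-2 given above thus start from different untreated levels, 635 ± 37.0 CPM in the mannitol control against 269.8 ± 53.1 CPM in Mock for HSC70-3, and 189.6 ± 10.2 CPM in the mannitol control against 97.9 ± 8.11 CPM in Mock for cpHSC70-2 (SD, n = 3 each).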
